A study of Mus musculus with 12 samples.

Results

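Expression of 10 genes that report on the p53 pathway and on cellular senescence was followed in mouse intestinal stem cells (ISCs) from young and old animals. The genes were chosen by name. They are Trp53, its targets Mdm2, Ccng1, Trp53inp1, Phlda3, Bax, Bbc3 and Cdkn1a, and the CDK inhibitor genes Cdkn2a and Cdkn2b. All 10 are among the 54232 genes of the count table, and 9 of them passed the filter on low counts. Cdkn2a did not, because it had no count in any library.

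The data are 3-prime RNA-seq counts from 12 libraries in 4 groups of 3, each library prepared from the small intestinal crypt cells of 1 female mouse. ISCs of wild-type C57/Bl6 mice sorted with the SM6 panel of surface markers came from animals of 2 months (SM6 young) and 22 months (SM6 old). ISCs of Lgr5-EGFP-IRES-CreERT mice (the name in the labels, with CreERT2 in the methods of the study) came from animals of the same 2 ages (Lgr5-GFP young and Lgr5-GFP old). In that strain the reporter sits in the Lgr5 locus, so that sorting on GFP rests on the activity of 1 gene. The labels list the SM6 markers for all libraries, whereas a legend of the study names the GFP reporter for the Lgr5-GFP animals. Strain and isolation differ together and cannot be told apart.

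The transcription factor p53, encoded by Trp53, is stabilised when DNA is damaged and activates genes that halt the cell cycle, repair DNA or start apoptosis. One of those targets, Mdm2, encodes the ubiquitin ligase that removes p53 again and so closes a feedback loop. Cdkn1a encodes p21, which blocks cyclin-dependent kinases, and in the gut it is also known to rise as cells leave the crypt and differentiate. Cdkn2a, which encodes p16INK4a and p19ARF, and its neighbour Cdkn2b, which encodes p15INK4b, act on the Rb pathway and on Mdm2 and are widely used as markers of senescence.

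A promoter window of Cdkn1a was the only one, among those of 9 of these genes, in which 2 p53 half-sites stood close together. A p53 half-site is a 10-base motif, and p53 binds a pair of them separated by at most 13 bases. RefSeq start-site windows of 300 bases (250 before the start and 50 from it on, build GRCm38.p6) were found for 9 of the genes, 13 windows in all, and none for Trp53inp1. The pattern of the half-site is its own reverse complement, so a search of 1 strand covered both. Of all 32851 promoter windows in the table, 8.36% held at least 1 half-site and 0.0731% held a pair. The window of a more downstream Cdkn1a start, chr17:29093519-29093818, held no half-site. The 100 bases before the upstream Cdkn1a start, chr17:29090879-29090978 on the plus strand, are printed because they hold both half-sites. These are in capitals and begin at -73 and -51 from that start with 12 bases between them.
Cdkn1a: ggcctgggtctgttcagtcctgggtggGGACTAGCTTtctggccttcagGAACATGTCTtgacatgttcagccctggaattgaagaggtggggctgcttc

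Single half-sites lay in the windows of 4 more genes. They are shown, each with 10 bases on either side and the half-site in capitals, because their genes serve as the comparison for Cdkn1a. They begin at -75 for Trp53 (chr11:69580274-69580303, plus strand), -186 for Mdm2 (chr10:117710925-117710954, minus strand), -185 for Ccng1 (chr11:40755452-40755481, minus strand) and -201 for Bax (chr7:45467080-45467109, minus strand).
Trp53: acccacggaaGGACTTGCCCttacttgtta
Mdm2: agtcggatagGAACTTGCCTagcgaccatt
Ccng1: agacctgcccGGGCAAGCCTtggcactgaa
Bax: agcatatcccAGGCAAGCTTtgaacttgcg

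In other words, 5 of 13 windows, from 5 of 9 genes, had a half-site. Of 31 windows of other p53 targets 7 had one, and of all windows 8.36%. These are matches of letters, and binding was not measured. No half-site was found in the windows of Cdkn2a, Cdkn2b, Phlda3 or Bbc3.

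Sequencing gave 1424340 counts in the median library (970472 in the shallowest and 3815425 in the deepest). The limit of detection was set at 3 counts. That is 0.943 to 2.89 CPM (counts scaled to a common library size), depending on the library. CPM values below are scaled by the TMM factors of edgeR and given as mean ± SD over 3 libraries, and log2 fold changes are given ± SE. Mean levels of Lgr5, which marks intestinal stem cells, were 331.0 (young) and 252.7 CPM (old) for SM6 and 257.2 (young) and 232.4 CPM (old) for Lgr5-GFP. All 12 genes of the stem cell list were detected, but so were all of the Paneth cell, goblet cell, enterocyte and enteroendocrine lists, so detection alone does not separate the cell types. The summed stem cell markers were lower in old than in young libraries without overlap, at 8281 to 9540 against 13120 to 16158 CPM in SM6 and at 10854 to 12524 against 12758 to 14488 CPM in Lgr5-GFP. Paneth cell defensins made up 23.1% of counts in SM6 old replicate 3 and 23.2% in Lgr5-GFP young replicate 1, against 1.26 to 12.4% elsewhere, and the calls of Cdkn1a, Cdkn2b and the enterocyte, goblet cell and Paneth cell lists are also given without these libraries. In bulk libraries, fewer cells of a type and less RNA per cell cannot be told apart.

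Cdkn1a was the only one of the 9 tested genes called for age or between isolations in the main analysis. Its age effect had opposite signs in SM6 and Lgr5-GFP. A gene was called at a Benjamini-Hochberg adjusted p under 0.05 in edgeR's quasi-likelihood test. For the age effect in SM6, 0 of 9 genes were called, where 2.42% of all 13368 tested genes were called, and 1 of 9 in Lgr5-GFP, where the share was 0.471%. For the average of both isolations it was 0 of 9 against 2.66%, and for the difference of the age effects 1 of 9 against 0.658%. Between isolations it was 0 of 9 at 2 months against 0.0898%, and 1 of 9 at 22 months against 0.718%. Each of these calls is Cdkn1a. For the comparisons with 0 calls, edgeR gave 2 of 9 genes at an unadjusted p under 0.05 in SM6, where 13.1% of all genes had one, and 0 in the other 2 comparisons (12.8% of all genes on average and 7.47% at 2 months), and DESeq2 and limma voom also called 0.

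In SM6 the median log2 fold change was 0.15 against -0.0070 for all tested genes, and in Lgr5-GFP -0.14 against -0.034. Libraries of young and old did not overlap for 2 of 9 genes in SM6 (Cdkn1a and Bax), against 17.5% of all genes, and for 1 of 9 in Lgr5-GFP (Cdkn1a), against 14.6%. Between isolations they did not overlap for 0 of 9 genes at 2 months, against 13.8%, and for 4 of 9 at 22 months (Trp53, Cdkn1a, Phlda3 and Bbc3), against 13.5%. These 4 comparisons share libraries, since each group enters 2 of them.

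Trp53 mRNA did not differ detectably between any of the groups. The gene spans 11515 bases at chr11:69580359-69591873 (GRCm38, plus strand). Its level was 137.3, 105.0 and 117.4 CPM in SM6 young and 112.7, 111.6 and 117.9 CPM in SM6 old. In Lgr5-GFP young it was 116.3, 100.9 and 169.6 CPM, and in Lgr5-GFP old 124.3, 141.1 and 138.5 CPM. The ranges of young and old overlapped in both isolations, and a single young library, Lgr5-GFP replicate 3, was the highest of all. The age effect was a log2 fold change of -0.07 ± 0.19 (SE) in SM6 and 0.05 ± 0.18 in Lgr5-GFP (edgeR adjusted p = 0.933 and 0.970). The 95% interval in SM6 ran from 0.728-fold to 1.24-fold and in Lgr5-GFP from 0.794-fold to 1.35-fold, so larger changes of this mRNA lay outside what the libraries allow. At 22 months every Lgr5-GFP library lay above every SM6 library, but the difference of 0.24 ± 0.19 was not past the threshold (adjusted p = 0.760). p53 itself is regulated mainly through the stability of the protein, which was not measured here.

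Mdm2, the ubiquitin ligase of the feedback loop (chr10:117688875-117710758, minus strand), was low and variable. The SM6 libraries averaged 15.5 ± 2.90 CPM when young and 16.2 ± 8.95 CPM when old, and the Lgr5-GFP libraries 17.0 ± 9.93 and 13.7 ± 3.20 CPM. Single libraries spanned 6.09 CPM in SM6 old replicate 2 to 27.3 CPM in Lgr5-GFP young replicate 1, and all 4 groups overlapped. The age effect was 0.05 ± 0.43 in SM6 and -0.41 ± 0.42 in Lgr5-GFP (edgeR adjusted p = 0.986 and 0.819). Its intervals, 0.559-fold to 1.90-fold in SM6, were wide enough that a change of moderate size could not have been detected.

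Ccng1, a direct p53 target that encodes cyclin G1, varied little (chr11:40748552-40755311, minus strand). It was at 53.2, 47.0 and 58.3 CPM in SM6 young and at 45.8, 42.6 and 55.0 CPM in SM6 old. The Lgr5-GFP libraries held 62.2, 56.6 and 55.7 CPM when young and 64.5, 49.5 and 57.7 CPM when old. Young and old overlapped in both isolations, with an age effect of -0.14 ± 0.20 in SM6 and -0.02 ± 0.19 in Lgr5-GFP (edgeR adjusted p = 0.836 and 0.988). The 95% interval, 0.684-fold to 1.20-fold in SM6 and 0.748-fold to 1.29-fold in Lgr5-GFP, was about as narrow as that of Trp53.

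Trp53inp1 encodes a stress-induced protein that promotes autophagy and p53 activity (chr4:11156431-11174379, plus strand). In SM6 its mean was 11.7 ± 3.23 CPM at 2 months and 12.1 ± 2.88 CPM at 22 months. In Lgr5-GFP the means were 12.6 ± 4.17 and 8.35 ± 2.07 CPM. The lowest mean was that of Lgr5-GFP old, whose libraries overlapped those of all other groups. The age effect was 0.02 ± 0.39 in SM6 and -0.59 ± 0.40 in Lgr5-GFP (edgeR adjusted p = 0.993 and 0.683).

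Phlda3, which encodes a repressor of Akt signalling, lay at the limit of detection (chr1:135766119-135769136, plus strand). It had 42 counts in all. The SM6 libraries held 0, 4 and 4 counts when young and 3, 4 and 4 when old, and the Lgr5-GFP libraries 5, 6 and 7 when young and 2, 2 and 1 when old. In 5 of 12 libraries the count was 3 or below, among them all of Lgr5-GFP old. The pooled level of Lgr5-GFP young over Lgr5-GFP old was a ratio of 2.04 (exact Clopper-Pearson 95% interval 0.730 to 7.03, counting error only), and that of SM6 old over SM6 young was 1.66 (0.608 to 4.75). No difference was detectable at this depth.

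The pro-apoptotic targets Bax and Bbc3 did not change detectably either. Bax, which encodes the pore-forming protein of the mitochondrial outer membrane (chr7:45461697-45466898, minus strand), was at 53.2, 48.6 and 46.1 CPM in SM6 young and at 64.5, 56.2 and 55.0 CPM in SM6 old. These groups did not overlap, but the difference was small, 0.24 ± 0.21 (edgeR adjusted p = 0.697). In Lgr5-GFP the levels were 45.3, 66.0 and 59.8 CPM when young and 71.1, 55.9 and 45.2 CPM when old, with the highest and the lowest library of the strain both old, and an age effect of 0.04 ± 0.21 (adjusted p = 0.976). A protein-coding gene, Gm45808, shares 192 exon bases with Bax on the same strand, none of them in the last 500 bases where 3-prime reads fall.

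Bbc3 encodes PUMA, a BH3-only protein that frees Bax from its inhibitors (chr7:16308393-16318205, plus strand). Its counts in SM6 were 9, 9 and 3 at 2 months and 5, 7 and 7 at 22 months. Those in Lgr5-GFP were 21, 3 and 14 at the younger age and 9, 9 and 6 at the older. The group means ranged only from 4.19 CPM in SM6 young to 6.35 CPM in Lgr5-GFP old, and 2 libraries were at the limit of 3 counts. The age effect was 0.15 ± 0.56 in SM6 and 0.24 ± 0.52 in Lgr5-GFP (edgeR adjusted p = 0.960 and 0.944), and intervals as wide as 0.496-fold to 2.47-fold leave room for sizeable changes in either direction.

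**Figure D1:**
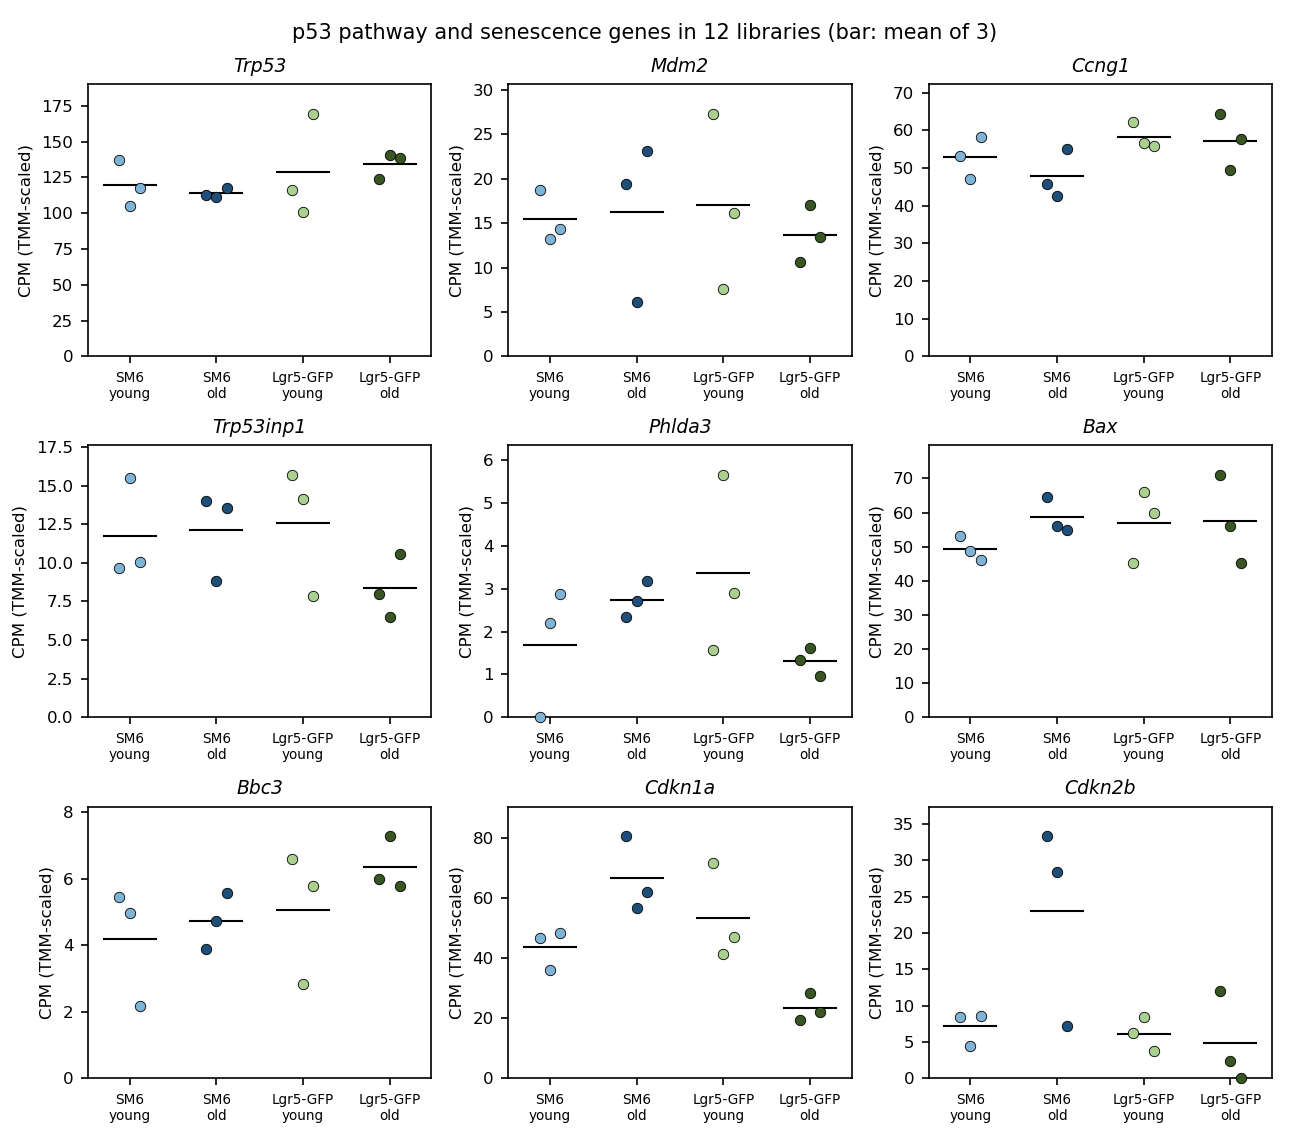
TMM-scaled CPM of the 9 detected genes in each of the 12 libraries, with young and old libraries of the SM6 and Lgr5-GFP isolations on the horizontal axis and a bar at the mean of 3. Cdkn1a libraries of Lgr5-GFP old sit between 19.3 and 28.4 CPM, below all others, and Cdkn2b is high in 2 of 3 SM6 old libraries.

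Cdkn1a fell with age in Lgr5-GFP and not in SM6, where the old libraries were the higher ones. The gene spans 9752 bases at chr17:29090976-29100727 (plus strand). It stood at 46.6, 35.9 and 48.2 CPM in SM6 young and at 80.8, 56.8 and 62.1 CPM in SM6 old. In Lgr5-GFP young it was at 71.7, 41.5 and 47.1 CPM, from 228, 44 and 114 counts, and in Lgr5-GFP old at 19.3, 28.4 and 22.1 CPM, from 29, 35 and 23 counts. Old and young libraries did not overlap in either isolation, and the direction differed.

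The age effect in Lgr5-GFP was a fall by 1.23 ± 0.25 on the log2 scale, to 0.426-fold of the young level (95% interval 0.296 to 0.612, edgeR adjusted p = 0.0266), and all 3 old libraries lay below all 3 young ones. In SM6 the log2 fold change was 0.61 ± 0.23, or 1.53-fold, with an adjusted p of 0.220 (unadjusted p = 0.0151 from the same edgeR fit). The test of the difference itself, Lgr5-GFP minus SM6, gave -1.85 ± 0.35 (edgeR adjusted p = 0.0103). With the defensin share of each library as a covariate the difference was -1.68 and not called (edgeR adjusted p = 0.229). Averaged over both isolations, the age effect was -0.31 ± 0.17 and not past the threshold (adjusted p = 0.483).

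At 2 months the isolations did not differ detectably in Cdkn1a, with Lgr5-GFP over SM6 at 0.33 ± 0.23 (edgeR adjusted p = 0.791). At 22 months Cdkn1a was lower in Lgr5-GFP than in SM6 by a log2 fold change of -1.52 ± 0.26, or 2.87-fold (adjusted p = 0.00222). In order of their means, the groups ran from SM6 old (66.6 ± 12.6 CPM) over Lgr5-GFP young (53.4 ± 16.1) and SM6 young (43.6 ± 6.69) to Lgr5-GFP old (23.3 ± 4.66). Neighbours overlapped at the first pair of steps, and at the last step they did not.

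The fall in Lgr5-GFP was sensitive to single libraries, to the scaling and to a covariate. Without Lgr5-GFP young replicate 1, the library of that group with the highest Cdkn1a level and the highest defensin share, it was -0.94 (edgeR adjusted p = 0.187), and -1.10 (adjusted p = 0.156) with Lgr5-GFP old replicate 1 removed instead. With Lgr5-GFP old replicate 3 removed it was -1.21 (adjusted p = 0.0926). With all libraries kept, it was -1.01 when scaled by library totals alone (edgeR adjusted p = 0.0727). It was -1.13 with the defensin share as a covariate (edgeR adjusted p = 0.223). The lower level in Lgr5-GFP old than in SM6 old was past the threshold in all 22 alternative settings, with values from -1.69 to -1.32. A gene of unknown type, AC167363.2, shares 273 exon bases with Cdkn1a on the opposite strand, none in the last 500 bases.

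**Figure D2:**
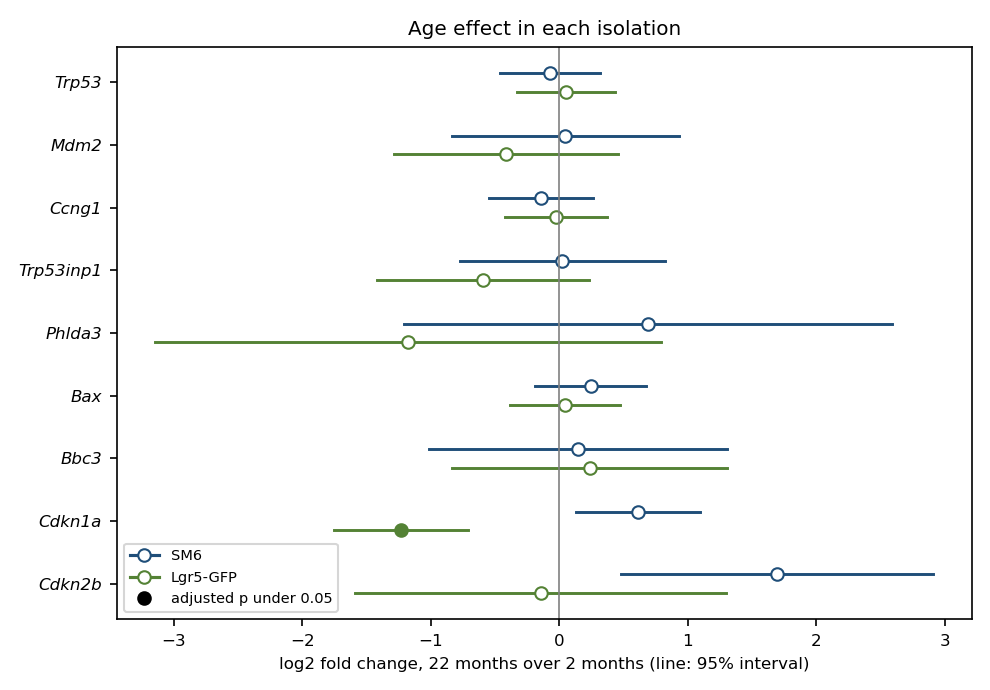
Log2 fold change at 22 over 2 months for the 9 tested genes in SM6 (blue) and Lgr5-GFP (green), with lines for the 95% interval and filled points for an adjusted p under 0.05. Cdkn1a in Lgr5-GFP, at -1.23, is the single filled point, and the intervals of Phlda3, Bbc3 and Cdkn2b are the widest.

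Some markers of differentiated cells had calls in the same direction as Cdkn1a. Of 10 enterocyte genes, 5 were called higher at 22 months in SM6 and 3 lower in Lgr5-GFP, and 6 had a negative called difference of the age effects, where 2.42%, 0.471% and 0.658% of all tested genes were called. The median log2 fold change of the list was 1.10 in SM6 and -1.06 in Lgr5-GFP. The mean of their summed level in Lgr5-GFP was higher in old libraries (5629 ± 5457 CPM) than in young ones (2450 ± 643 CPM). That rests on Lgr5-GFP old replicate 2, at 11915 CPM. Replicates 1 and 3 of Lgr5-GFP old held 2864 and 2108 CPM, inside the young range. The SM6 libraries held 1987 to 2122 CPM when young and 2618 to 9384 CPM when old, and Lgr5-GFP libraries 1816 to 3101 CPM when young and 2108 to 11915 CPM when old. Of 8 goblet cell genes, 5 were called higher in SM6, 0 in Lgr5-GFP and 3 in the difference of the age effects, with negative values, and their sum was 17272 to 18194 CPM in SM6 old against 3151 to 13722 CPM in the other groups. Of 11 Paneth cell genes, 2 were called higher in SM6 and 2 lower in Lgr5-GFP, and all 11 had a negative called difference; the sum spanned 12877 to 330387 CPM among the SM6 libraries and 22777 to 317126 CPM among the others. Without the SM6 old and Lgr5-GFP young libraries rich in defensins, a setting added after seeing the data, 7 enterocyte genes were called higher in SM6, 4 lower in Lgr5-GFP and 6 in the difference, where the shares of all genes were 3.29%, 0.606% and 0.458%. Goblet cell genes then had 6 calls in SM6, 0 in Lgr5-GFP and 5 in the difference. The Paneth cell calls depended on these libraries, with 0 left in SM6, 5 lower in Lgr5-GFP and 2 instead of 11 in the difference. The share of counts from mitochondrial genes moved opposite to Cdkn1a in Lgr5-GFP. It was higher in old libraries, at 4.02 to 6.29% in young and 7.37 to 9.33% in old ones, without overlap. In SM6 it was 6.39 to 7.01% in young and 5.77 to 6.85% in old libraries. The part of these cells and of the mitochondrial share in the Cdkn1a result was not tested.

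Among 8314 genes with a mean of at least 10 CPM, those whose levels over the 12 libraries were most like Cdkn1a were Asah2 (Pearson r = 0.923), Guca2b (r = 0.907) and Dpep1 (r = 0.903). Asah2 encodes neutral ceramidase, Guca2b the hormone uroguanylin and Dpep1 a membrane dipeptidase. Mean Guca2b levels were 299.8 (young) and 814.6 CPM (old) for SM6 and 617.1 (young) and 178.3 CPM (old) for Lgr5-GFP, the same order of groups as Cdkn1a. For Mdm2 the most similar genes were Ska1 (r = 0.866), Adgre5 and Hccs, and for Trp53 they were Srp72 (r = 0.872), Chmp4c and Krcc1. These correlations describe 12 libraries that share depth and cell makeup and carry no test.

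**Figure D3:**
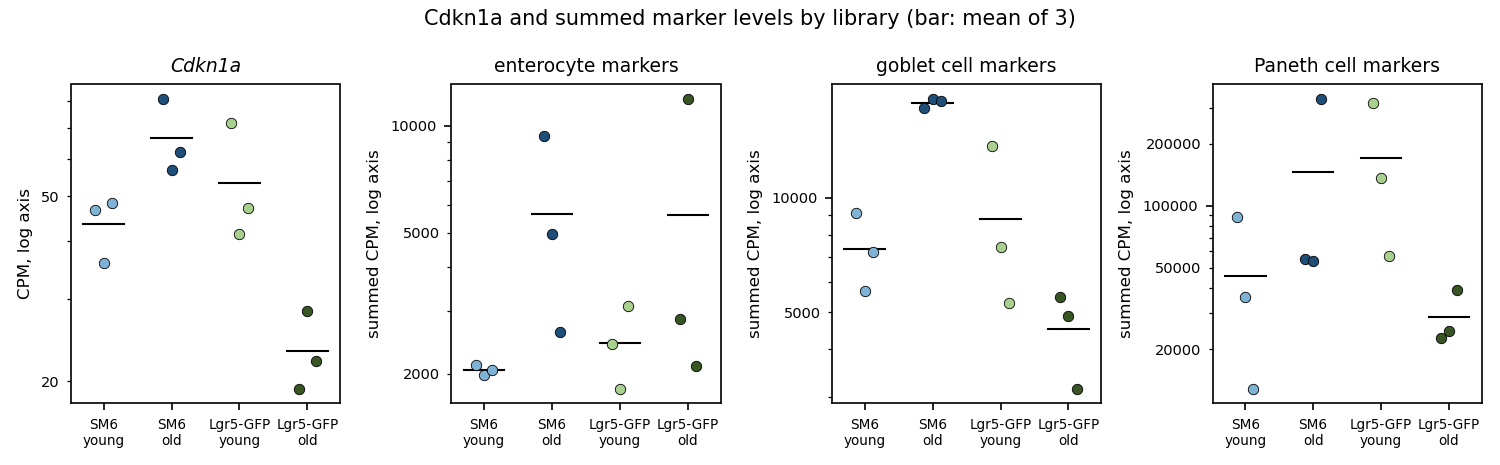
Cdkn1a (CPM, log axis) beside the summed CPM of enterocyte, goblet cell and Paneth cell markers (log axes) in the 12 libraries, with a bar at the mean of 3. Goblet cell markers are highest in the 3 SM6 old libraries, at 17272 to 18194 CPM, while the enterocyte sum is highest in a library of Lgr5-GFP old.

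The CDK inhibitor genes of the INK4 locus were low or undetected. Cdkn2a (chr4:89274471-89294653, minus strand) had 0 counts in all 12 libraries, that is in 19669804 counts, so that every library lay under its limit of detection of 3 counts (0.943 to 2.89 CPM). It was not detectable at this depth in young or old ISCs, and no fold change can be given. Its neighbour Cdkn2b lies 11645 bases away (chr4:89306299-89311039, minus strand).

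Cdkn2b had 14, 8 and 12 counts in SM6 young and 43, 42 and 9 in SM6 old. The corresponding levels were 8.47, 4.42 and 8.64 CPM against 33.4, 28.4 and 7.17 CPM, so that 2 old libraries lay above all young ones and the other one within their range. The log2 fold change was 1.69 ± 0.59, or 3.23-fold, and did not pass the threshold (edgeR adjusted p = 0.159, unadjusted p = 0.00842). Without SM6 old replicate 3, the low library and the one with the high defensin share, it was 2.12 (edgeR adjusted p = 0.0332).

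In Lgr5-GFP, Cdkn2b had 20, 9 and 9 counts when young and 18, 3 and 0 when old, with the last library below the limit of detection. The age effect was -0.14 ± 0.70 (edgeR adjusted p = 0.976), and the difference of the age effects was -1.84 ± 0.91 (adjusted p = 0.537). That difference was not called in any of 21 alternative settings and ran from -1.35 to -3.79, the latter without Lgr5-GFP old replicate 1, the library with 18 counts. At 22 months Lgr5-GFP stood below SM6 by a log2 fold change of -2.11 ± 0.63 that did not pass the threshold (adjusted p = 0.162). It was called when SM6 old replicate 3, Lgr5-GFP old replicate 1 or both libraries rich in defensins were left out and with no filter on low counts, and in none of the other 18 alternative settings.

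Further genes of the pathway were examined in lists. Of 30 other p53 targets, 28 were tested, and 1, Gadd45a, was called, lower at 22 months in SM6 and on average. For this and the following lists, the shares of all tested genes called were 2.42% in SM6 and 2.66% on average, so 1 call among 28 genes is near the background. Gadd45a encodes a stress protein of DNA repair and growth arrest. It fell from 67.7, 98.9 and 74.2 CPM in SM6 young to 17.9, 25.0 and 23.9 CPM in SM6 old, a log2 fold change of -1.85 ± 0.28 (edgeR adjusted p = 0.000579). In Lgr5-GFP the levels were 51.5, 49.0 and 68.1 CPM when young and 23.9, 51.9 and 23.1 CPM when old, with 1 old library inside the young range, and a log2 fold change of -0.78 ± 0.27 that did not pass the threshold (adjusted p = 0.269). Averaged over the isolations Gadd45a was at -1.31 ± 0.19 (adjusted p = 0.000274), and it was called in all alternative settings. The median over the 28 targets was -0.14 in SM6 and -0.02 in Lgr5-GFP, against -0.0070 and -0.034 over all tested genes.

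Of 20 p53 regulators in the table, 18 were tested, and Rpl5, a ribosomal protein that binds and restrains Mdm2, was called lower, 1 gene of 18 against 2.42% of all genes in SM6 and 2.66% on average. It averaged 843.8 ± 250.5 CPM in SM6 young and 435.0 ± 93.3 in SM6 old, with no overlap, and 557.7 ± 203.5 and 445.2 ± 49.5 CPM in Lgr5-GFP young and old, which overlapped. The log2 fold change was -0.95 ± 0.23 in SM6 (edgeR adjusted p = 0.0236) and -0.64 ± 0.16 on average (adjusted p = 0.0294). The SM6 call held in 17 of 22 alternative settings and the average call in 15 of 21. Without SM6 young replicate 3, the library with the highest Rpl5 level, the SM6 value was -0.69 (edgeR adjusted p = 0.189), and it also lost its call without SM6 old replicate 1 (-0.86, adjusted p = 0.151) or replicate 3 (-0.86, adjusted p = 0.0658). The average lost its call without SM6 young replicate 3, SM6 old replicate 1, Lgr5-GFP young replicate 3, or Lgr5-GFP old replicate 1 or 3, with values from -0.63 to -0.47 (adjusted p up to 0.133).

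In the list of other CDK inhibitors and Rb pathway genes, all 21 were tested and 2 were called, both lower in SM6 and on average (2.42% and 2.66% of all genes). Cdkn1b, which encodes the CDK inhibitor p27, stood at 404.1, 444.2 and 481.7 CPM in SM6 young and at 76.2, 131.9 and 153.8 CPM in SM6 old. The log2 fold change was -1.88 ± 0.25 in SM6 (edgeR adjusted p = 0.000199) and -1.31 ± 0.17 on average (adjusted p = 9.5e-05). In Lgr5-GFP it stood at 287.8 ± 38.2 CPM when young and 172.7 ± 74.9 when old, with 1 old library inside the young range and a log2 fold change of -0.74 ± 0.24 (adjusted p = 0.237). Cdk6, which encodes a G1 kinase that p15INK4b and p16INK4a inhibit, was at 1111 ± 136.8 CPM in SM6 young and 535.8 ± 119.7 in SM6 old (-1.05 ± 0.21, adjusted p = 0.00445). On average Cdk6 was at -0.76 ± 0.14 (edgeR adjusted p = 0.00306). The difference of the age effects was not past the threshold for Gadd45a, Cdkn1b or Cdk6 (adjusted p = 0.340, 0.186 and 0.541).

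**Figure D4:**
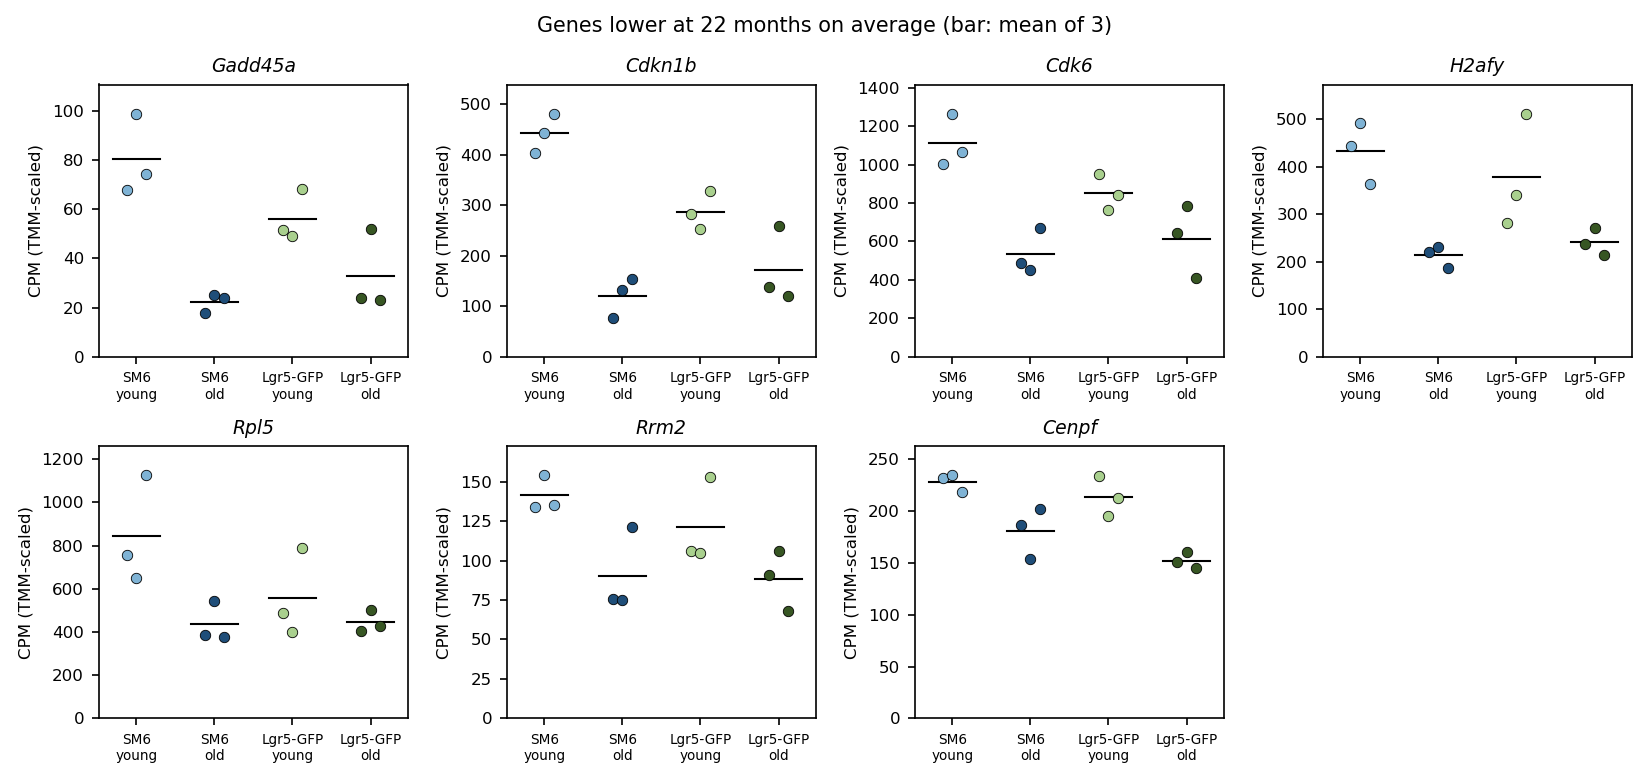
TMM-scaled CPM of the 7 list genes that were called lower at 22 months on average, in each of the 12 libraries, with a bar at the mean of 3. SM6 old libraries lie below all SM6 young libraries for each of the 7 genes, and in Lgr5-GFP the ages overlap for each of them except H2afy and Cenpf.

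Senescence genes of the nucleus and lysosome, 15 of them tested, included 1 call in SM6 and on average (2.42% and 2.66% of all genes). H2afy, which encodes the histone variant macroH2A1 of repressed chromatin, averaged 433.9 ± 64.9 CPM in SM6 young and 213.9 ± 23.0 in SM6 old (-1.02 ± 0.20, edgeR adjusted p = 0.00413). In Lgr5-GFP it was at 378.0 ± 120.0 CPM when young and 241.0 ± 29.2 when old (-0.65 ± 0.20, adjusted p = 0.189), without overlap, and on average it was at -0.84 ± 0.14 (adjusted p = 0.00109). A further pair of genes was picked after their values were seen. Lmnb1, the lamin whose loss is a common sign of senescence, was at -0.11 ± 0.21 in SM6 and 0.01 ± 0.21 in Lgr5-GFP (edgeR adjusted p = 0.900 and 0.999). Glb1, the source of senescence-associated beta-galactosidase, was at 0.07 ± 0.24 and -0.13 ± 0.23 (adjusted p = 0.951 and 0.917).

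The secretory genes of senescence were mostly undetected. Of 30 genes, 10 had no count in any library, 14 more never rose above 3 counts, and 5 were tested, of which edgeR called 0 in any comparison. Immune cell markers summed to 22.7 to 45.3 CPM in Lgr5-GFP young and 6.73 to 17.0 CPM in Lgr5-GFP old, without overlap. In SM6 they summed to 12.7 to 26.5 CPM when young and 17.6 to 32.7 CPM when old. Stromal and endothelial markers summed to 2.06 to 10.1 CPM. Of 16 BCL2 family genes 14 were tested, and 0 were called in any comparison.

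Of 25 cell cycle genes, 2 were called on average, both lower at 22 months, where 2.66% of all tested genes were called. Rrm2, the small subunit of ribonucleotide reductase, was at -0.55 ± 0.15 (edgeR adjusted p = 0.0470), and Cenpf, a kinetochore protein, at -0.42 ± 0.11 (adjusted p = 0.0437). Of 21 alternative settings Rrm2 was called in 11 and Cenpf in 6. The study itself reports Rrm2 as higher at 22 months in its full-length RNA-seq of pooled wild-type animals. The list median was -0.10 in SM6 and -0.18 in Lgr5-GFP, and 19 of 25 genes had a negative value in each. Over all tested genes the medians were -0.0070 and -0.034, and 50.7% and 53.6% of values were negative.

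**Figure D5:**
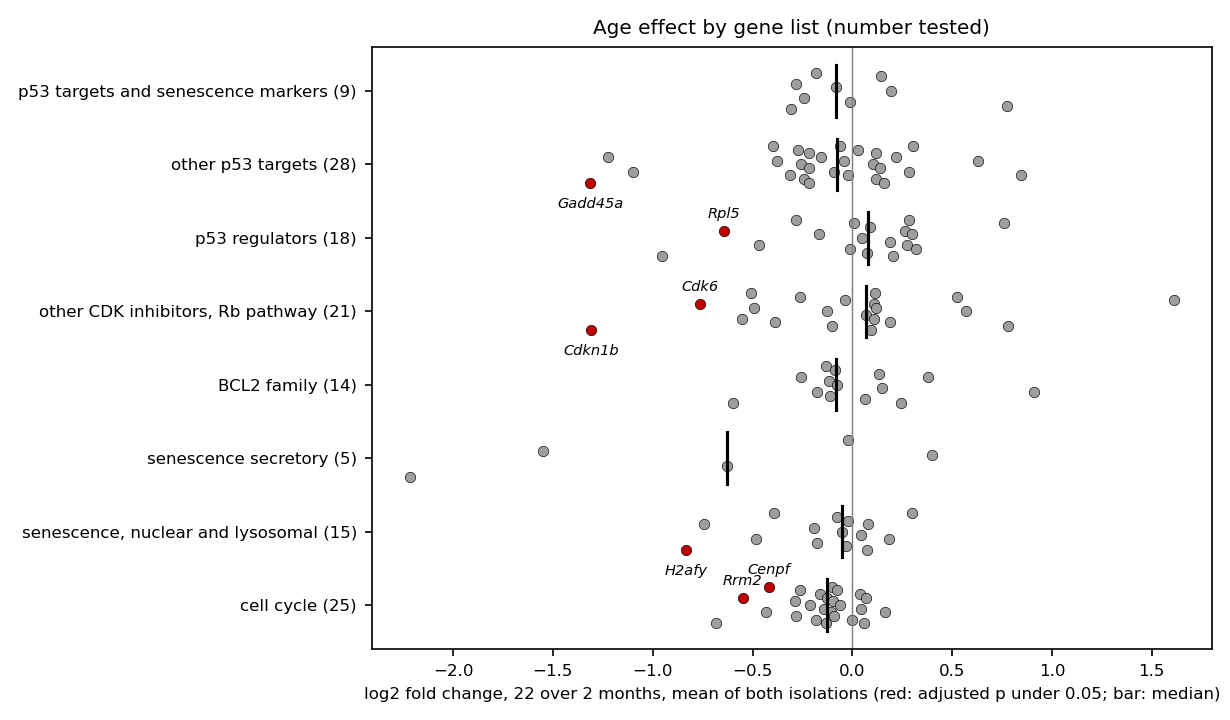
Log2 fold change at 22 over 2 months, averaged over both isolations, for every tested gene of 8 lists (1 row a list, number tested in brackets), with called genes in red and a bar at the median. The 7 called genes, Gadd45a, Rpl5, Cdk6, Cdkn1b, H2afy, Rrm2 and Cenpf, all lie left of 0.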

How the data were processed

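Poly(A) RNA of sorted ISCs from 12 mice was sequenced from the 3-prime end, and the authors deposited raw counts per gene, made with STAR 2.4.2a and featureCounts on GRCm38 with GENCODE vM15. Library preparation added unique molecular identifiers, and whether reads sharing one were collapsed before counting is not given in the sources used here. The counts were used as deposited, and symbols and positions came from a GENCODE vM21 annotation of GRCm38. Genes with over 5 reads and at least 1 CPM in at least 1 library were tested (13368 genes).

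All 12 libraries were fitted with 1 mean per group in edgeR 4.0.16 (R 4.3.3), with TMM scaling, quasi-likelihood F tests (two-sided) and Benjamini-Hochberg adjustment over all tested genes. The methods of the study tested other libraries with limma voom, which served here as an alternative (limma 3.58.1), as did DESeq2 1.42.0. Other alternatives changed the scaling, the filter, the covariates and the libraries included. The 95% intervals of fold changes come from the edgeR fit and include the spread between libraries, whereas the Clopper-Pearson intervals and detection limits cover counting error only. Library totals of 970472 to 3815425 counts set the precision of low genes. Replicates differed by more than sampling noise in each group. Same-numbered libraries did not deviate together (r between -0.042 and 0.020), so the numbers were not used to pair them.

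The genes and lists were chosen with earlier results of these data known. Named list genes were those called with the smallest adjusted p, up to 3 per direction for the average age effect and up to 2 for other comparisons. For Cdkn1a, Mdm2 and Trp53, the 3 most similar genes were named by Pearson r of log2(CPM + 1). Lists of stem, Paneth, goblet, enterocyte, enteroendocrine, tuft, immune, and stromal and endothelial markers checked the cell type. Sequences are from RefSeq.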

Additional observations from a re-analysis of the deposited data

Results flagged for a closer look

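Cdkn1a was singled out because its age effect differed between the isolations by a test of the difference itself, -1.85 ± 0.35 on the log2 scale (Lgr5-GFP minus SM6, edgeR adjusted p = 0.0103). All 3 old libraries lay above the young ones in SM6 and below them in Lgr5-GFP. With the defensin share of each library as a covariate the difference was -1.68 (adjusted p = 0.229), and in the other 20 alternative settings it was past the threshold. With groups of 3, single libraries were not tested as outliers.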

How the results depend on the processing

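Cdkn1a was lower in Lgr5-GFP old than in SM6 old past the threshold in all 22 alternatives (adjusted p up to 0.0300), while its fall with age in Lgr5-GFP was called in 16 of 22, with values from -1.40 to -0.94 and adjusted p up to 0.223. The 6 settings that ended the call were library totals (-1.01, edgeR adjusted p = 0.0727), the defensin covariate (-1.13, adjusted p = 0.223), and leaving out Lgr5-GFP young replicate 1, Lgr5-GFP old replicate 1, Lgr5-GFP old replicate 3 (-1.21, adjusted p = 0.0926) or both libraries with the highest defensin share (-0.94, adjusted p = 0.147). The causes were not tested. Scaling by library totals shifted the median of all genes to -0.16 in SM6 and 0.16 in Lgr5-GFP, and relative to that median Cdkn1a was at 0.63 and -1.17. Dropping the filter raised the calls over all genes from 323 to 603 in SM6 and from 63 to 274 in Lgr5-GFP, and Cdkn2b in SM6 was then at 1.69 (adjusted p = 0.00684). Gadd45a, Cdkn1b, Cdk6 and H2afy were called lower in every alternative tried, in SM6 and on average. Rpl5 in SM6 also lost its call with the defensin covariate (-0.64, adjusted p = 0.134) and without both defensin-rich libraries (-0.85, adjusted p = 0.0520), and on average with library totals (-0.63, adjusted p = 0.0855). Values below whose sign differs from that in the report belong to genes that were not called. With a replicate block, Cdkn1a kept its 3 calls. Depth limits Phlda3, Bbc3, Cdkn2b and Cdkn2a. With scaling by library totals alone, 0 of the 9 genes were called in Lgr5-GFP. The values of opposite sign were then Mdm2 -0.13, Trp53inp1 -0.13 and Bbc3 -0.0062 in SM6, Cdkn2b 0.075 and Ccng1 0.18 in Lgr5-GFP, Trp53 0.00038 on average and Bax 0.12 in the difference of the age effects. With DESeq2's size factors in edgeR, Trp53 was at 0.0043 on average. With no filter beyond 1 count, 1 of the 9 genes was called in SM6 (Cdkn2b) and 2 were called between isolations at 22 months (Cdkn1a and Cdkn2b). With the DESeq2 Wald test, Trp53 was at 0.0035 on average. With limma voom with quality weights, the values of opposite sign were Mdm2 -0.28 and Trp53inp1 -0.085 in SM6, Ccng1 0.022 in Lgr5-GFP and Trp53 0.028 and Phlda3 0.10 on average. With the replicate block, the values of opposite sign were Mdm2 -0.0096 in SM6 and Trp53 0.0014 on average. With the defensin share as a covariate, 0 of the 9 genes were called in Lgr5-GFP and 0 were called in the difference of the age effects. The values of opposite sign were then Mdm2 -0.36, Trp53inp1 -0.23 and Bbc3 -0.11 in SM6, Trp53 -0.0015, Mdm2 0.23, Ccng1 0.067 and Bax -0.080 in Lgr5-GFP and Mdm2 0.60 and Trp53inp1 0.059 in the difference of the age effects. Without both libraries with the highest defensin share, a setting added after seeing the data, 1 of the 9 genes was called in SM6 (Cdkn2b), 0 in Lgr5-GFP and 2 were called between isolations at 22 months (Cdkn1a and Cdkn2b), against 3.29%, 0.606% and 0.885% of all genes. The values of opposite sign were then Mdm2 -0.29 and Trp53inp1 -0.054 in SM6, Trp53 -0.026, Mdm2 0.12, Ccng1 0.038 and Bax -0.11 in Lgr5-GFP and Mdm2 0.41 in the difference of the age effects. Leaving out 1 library at a time, in SM6, the number of called genes ranged from 0 to 1, and log2 values ranged for Trp53 from -0.16 to 0.038, Mdm2 from -0.30 to 0.46, Trp53inp1 from -0.10 to 0.28 and Bbc3 from -0.14 to 0.36. Leaving out 1 library at a time, in Lgr5-GFP, the number of called genes ranged from 0 to 1, and log2 values ranged for Trp53 from -0.086 to 0.30, Cdkn2b from -2.10 to 0.35, Mdm2 from -0.68 to 0.11, Ccng1 from -0.13 to 0.073 and Bax from -0.15 to 0.18. Leaving out 1 library at a time, on average, log2 values ranged for Trp53 from -0.079 to 0.11, Cdkn2b from -0.20 to 1.02, Mdm2 from -0.35 to 0.081 and Phlda3 from -0.53 to 0.019. Leaving out 1 library at a time, in the difference of the age effects, log2 values ranged for Trp53 from -0.014 to 0.37, Mdm2 from -0.87 to 0.066 and Bbc3 from -0.12 to 0.37. Leaving out 1 library at a time, between isolations at 22 months, the number of called genes ranged from 1 to 2 (Cdkn2b was the second).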

Other observations

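The median log2 fold change of the 9 enteroendocrine genes was 0.61 in SM6, with 1 called higher, and -0.94 in Lgr5-GFP, with 0 called by edgeR, where 2.42% and 0.471% of all tested genes were called and their medians were -0.0070 and -0.034. Without the SM6 old and Lgr5-GFP young libraries with the highest defensin share, 0 were called in SM6 and the medians were 0.26 and -0.15. Of the 12 stem cell genes, 3 were called lower at 22 months in SM6 and 0 in Lgr5-GFP (2.42% and 0.471% of all genes), with medians of -0.37 and -0.06. The 5 tested tuft cell genes had medians of 0.28 and -2.36, with 0 called, but without those libraries only 2 were tested and the signs turned (-1.25 and 0.76). The 5 tested immune cell genes had 0.63 and -2.32, with 0 called, and 0.46 and -0.18 over the 4 tested without those libraries. The 2 tested stromal and endothelial genes had -0.63 and -0.49, with 0 called, and -0.081 and 0.14 without them.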
